A study of Homo sapiens with 24 samples.

Results

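The Sm, LSm and snRNP assembly genes encode the proteins that coat the small nuclear RNAs of the spliceosome and the machinery that loads them. A list of 40 symbols was looked up in the deposited gene count table of cells treated with the PRMT5 inhibitor LLY-283, and each was found under 1 of its 58676 gene identifiers. They fall into 9 roles. The Sm core ring holds 8 members, the LSm rings 8 and the SMN complex 9. The remaining roles are proteins of the U1 particle with 3 members, of U2 with 2, of U5 with 2, of the minor U11/U12 particle with 3 and of the U7 particle with 2, and 3 LSm-domain proteins outside the rings. The rule used no measured value, although the members were chosen with earlier results of these data known.

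The cells were HSJD-DIPG-007, a patient-derived diffuse midline glioma line that carries H3F3A K27M, ACVR1 R206H and a change labelled PIK3CA MIS in every library, so that all values come from 1 cell line. They were seeded as spheroids and the next day given vehicle or LLY-283 at the GI40 dose, the dose that inhibits growth by 40%. Poly(A) RNA was sequenced in 24 libraries, 12 per treatment group, with 3 libraries per group on days 0 and 5, 2 on day 7 and 1 on each of days 1, 2, 3 and 10. The labels give a single dose, while the study's methods add a second dose with a change of medium after day 5, and they describe the libraries of a group as technical repeats, so p-values measure the spread between these libraries.

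In the major and minor spliceosome each of the small nuclear RNAs U1, U2, U4, U5, U11, U12 and U4atac carries a ring of 7 Sm proteins around a short uridine-rich site. The U6 RNA carries a related ring of LSm proteins instead, and another LSm ring binds the ends of messenger RNAs that are being degraded. PRMT5, with its partner WDR77 and with CLNS1A, dimethylates arginines in the glycine-rich tails of SmB, SmD1 and SmD3 in the cytoplasm. The SMN complex, in which SMN binds the methylated tails and GEMIN5 reads the snRNA, then closes the Sm ring on the RNA. LLY-283 blocks the enzyme itself, so that the RNA level of PRMT5 does not report on its inhibition.

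Library totals lay between 13835205 and 23190369 counts. At day 5 the totals were 13835205 to 16691287 in the vehicle and 17339741 to 19516458 in the LLY-283 libraries, without overlap. Levels are given in CPM, the counts of a gene scaled to a library of common size. Of 10 markers of glioma cells of oligodendrocyte precursor type, 9 lay above 10 CPM in every library, and the exception, SOX10, was under 1 CPM throughout. A list of 4 neuronal genes summed to 53.7 to 55.2 CPM in the vehicle and 69.1 to 71.8 CPM in the LLY-283 libraries of day 5, almost all of it SYT1. The immune list of 3 genes stayed between 0.0599 and 1.14 CPM. The part of these lists in the results was not tested.

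The 10 fibroblast genes summed to 213 to 377 CPM in the vehicle and 303 to 313 CPM in the LLY-283 libraries of day 5. Of the 9 that were tested at day 5, 3 were called higher after LLY-283 in edgeR's test and 0 lower. POSTN, for example, was at 19.5, 20.4 and 28.8 CPM in the vehicle and at 79.7, 75.1 and 70.3 CPM in the LLY-283 libraries, and LUM at 20.5, 21.7 and 23.7 CPM and at 31.7, 30.0 and 29.4 CPM. Both were thus higher in every treated library, but the median log2 fold change of the 9 genes was -0.14. FN1 went the other way, at 2.34, 2.63 and 59.1 CPM in the vehicle and at 0.75, 1.02 and 2.25 CPM in the LLY-283 libraries. The summed level of COL1A1, COL1A2, COL3A1 and FN1, 4 genes of that list chosen after their values were seen, stood apart in some libraries. It was 157 CPM in vehicle day 5 repeat 3, 81.3 CPM in LLY-283 day 2 and 81.6 CPM in vehicle day 7 repeat 1. All other libraries lay at 7.37 to 17.6 CPM. At day 7 the libraries of repeat 2 went against their labels in several, but not all, markers that differed between the treatment groups at day 5, so that it is in doubt which treatment they had. POSTN was at 17.7 CPM in the library labelled vehicle repeat 1, 48.1 CPM in that labelled vehicle repeat 2, 51.9 CPM in that labelled LLY-283 repeat 1 and 11.9 CPM in that labelled LLY-283 repeat 2. SYT1 was at 50.8, 60.3, 61.2 and 48 CPM and PDGFRA at 123, 143, 158 and 118 CPM in the same order. OLIG2, at 301, 307, 289 and 292 CPM in that order, kept the labelled direction of day 5. BCAN, at 524, 382, 419 and 390 CPM, differed little between the libraries of repeat 2. For the members described here the library labelled LLY-283 repeat 2 also lay with the vehicle libraries, while that labelled vehicle repeat 2 mostly did too. Results of days 5 and 7 are therefore also given without the library concerned.

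At day 5 most of the members were lower after LLY-283. Calls came from the quasi-likelihood test of edgeR, made at a Benjamini-Hochberg adjusted p under 0.01, over 16491 genes that passed a filter on low counts, and all 40 members passed it. Of the 40, 24 were called lower and 1 was called higher, whereas 14.1% of all genes tested were called lower and 12% higher. The median log2 fold change was -0.20 over the members and 0.02 over all genes. A log2 fold change below 0 was found for 36 of 40 members and for 47.1% of all genes. The changes were small: the lowest fitted value was -0.46, for GEMIN4, and only 2 members lay above 0.15. In bulk RNA, fewer cells that express a gene and less RNA per cell cannot be told apart.

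**Figure D1:**
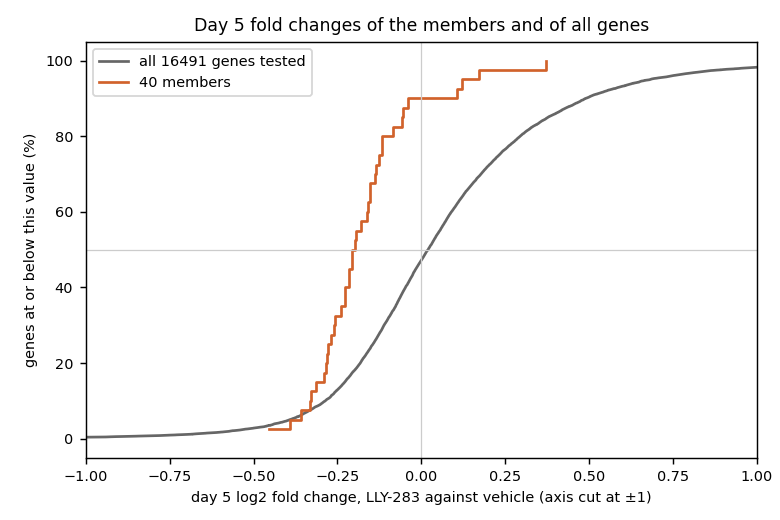
Cumulative share of genes (y axis, percent) at or below each day 5 log2 fold change of LLY-283 against vehicle (x axis, cut at ±1), for the 40 members (orange) and all 16491 genes tested (grey). The members' curve runs to the left of the grey curve through most of its range, with medians of -0.20 and 0.02.

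In 32 of 40 members the 3 LLY-283 libraries did not overlap the 3 vehicle libraries, and 31 of these were lower. Among all genes tested, 46.3% did not overlap and 25.6% did so on the lower side. The 8 members whose groups overlapped were SNRPN, SNRNP70, SNRNP35, LSM2, LSM10, SMN1, GEMIN2 and GEMIN8. At an adjusted p under 0.05, 27 members were lower and 2 were higher, against 19.1% and 17.7% of all genes.

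**Figure D2:**
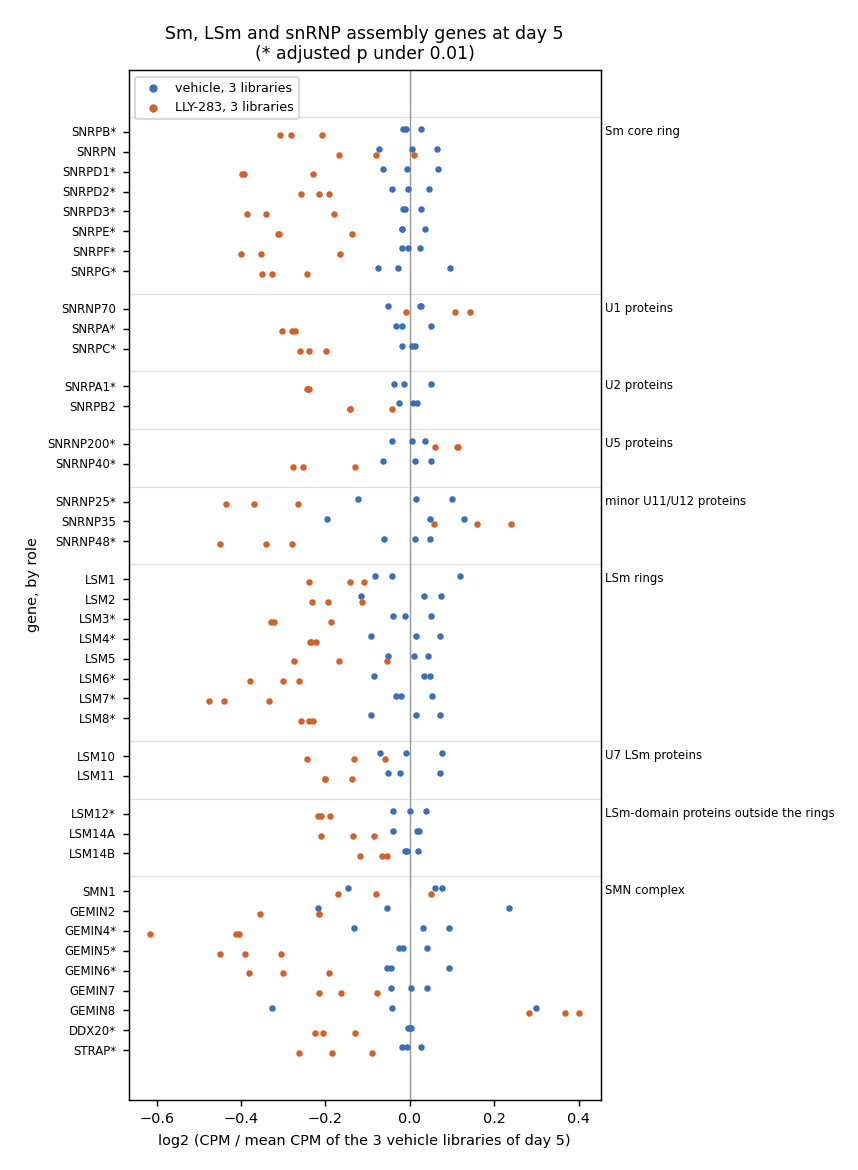
Level of each member (rows, grouped by role) in the 3 vehicle (blue) and 3 LLY-283 (orange) libraries of day 5, as log2 of CPM over the vehicle mean; asterisks mark an adjusted p under 0.01. Nearly all orange points lie left of 0, except for SNRNP70, SNRNP200, SNRNP35 and GEMIN8, and those of SNRPN and SMN1 straddle the blue points.

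At day 5 the Sm ring was lower after LLY-283 almost as a whole. Of its 8 genes 7 were called lower, against 14.1% of all genes tested. The median log2 fold change of the 8 was -0.26. Such differences are against the vehicle of the same day, and change from day 0 within the LLY-283 group was not tested. From day 0 to 5, mean SNRPB went from 383 to 346 CPM with LLY-283 and from 366 to 416 CPM in the vehicle. Mean SNRPG went from 88.7 to 88.9 CPM with LLY-283 and from 83.8 to 109.9 CPM in the vehicle. SNRPB encodes SmB, a ring protein with a methylated tail. The gene, on the minus strand of chr20:2461634-2470853 (GRCh38), shares exonic sequence with an unnamed gene, ENSG00000256566. SNRPB was at 413, 411 and 424 CPM in the vehicle libraries and at 360, 342 and 336 CPM in the LLY-283 libraries of day 5. All 3 LLY-283 libraries lay below the lowest vehicle library. Its log2 fold change was -0.24 ± 0.03 (SE, n = 3 against 3), a level 15.3% below that of the vehicle. The adjusted p was 2.51e-06 in edgeR's quasi-likelihood test.

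SNRPD1 and SNRPD3 encode SmD1 and SmD3, which also have methylated tails. SNRPD1 was at 115, 119.7 and 126 CPM in the vehicle and at 102.5, 91.2 and 91.5 CPM in the LLY-283 libraries, a log2 fold change of -0.31 ± 0.04 (SE, edgeR adjusted p = 2.33e-06). SNRPD3, on chromosome 22, was at 176, 172 and 171 CPM and at 153, 137 and 132 CPM, a log2 fold change of -0.28 ± 0.04 (SE, edgeR adjusted p = 4.6e-06). In both genes the groups were apart, and LLY-283 repeat 1 was the highest of the treated libraries. SNRPD3 shares exonic sequence on its strand with an unnamed gene, ENSG00000286070.

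The genes of SmG, SmF, SmE and SmD2, ring proteins that lack such tails, were lower than in the vehicle by similar amounts. SNRPG (SmG) was at 117.5, 104 and 108 CPM in the vehicle and at 92.8, 87.7 and 86.2 CPM in the LLY-283 libraries, a log2 fold change of -0.28 ± 0.04 (SE, edgeR adjusted p = 8.6e-06). SNRPF (SmF) had 81.1, 81.9 and 83.5 CPM against 73.2, 62.3 and 64.3 CPM, a log2 fold change of -0.28 ± 0.05 (SE, edgeR adjusted p = 4.07e-05). Neither gene's groups overlapped. SNRPE (SmE) had 235, 235 and 243.5 CPM in the vehicle and 216, 192 and 191 CPM in the LLY-283 libraries, a log2 fold change of -0.23 ± 0.04 (SE, edgeR adjusted p = 3.82e-05). SNRPD2 (SmD2) had 232, 224 and 218 CPM against 196, 193 and 187.5 CPM, a log2 fold change of -0.20 ± 0.04 (SE, edgeR adjusted p = 7.63e-05). For these the groups did not overlap either. Named pseudogenes of SNRPG and SNRPE held counts equal to 4.41% and 1.83% of those of the gene itself, so that a small part of their reads could be divided between near-identical sequences. SNRPD2 and SNRPF overlap exons of QPCTL and CCDC38 on the opposite strand, and although the library kit keeps strand, the strand setting of the counting is not given in the sources used here.

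SNRPN, an imprinted paralog of SNRPB, encodes SmN, and the paper counts Sm B/B'/N among the targets of PRMT5. Of the ring genes SNRPN alone was not called at day 5. Its difference from the other ring genes was not tested. At day 7, where no ring gene was called, the log2 fold change of SNRPN was -0.14 and the ring median -0.13. On day 5 it was at 96.0, 99.9 and 90.9 CPM in the vehicle and at 96.2, 90.3 and 85.0 CPM in the LLY-283 libraries. The groups overlapped, and the log2 fold change of -0.06 ± 0.04 (SE) had an adjusted p of 0.349 in edgeR's quasi-likelihood test. Its exons overlap those of SNURF and SNHG14 on the same strand, so that their reads cannot be fully told apart.

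Proteins that belong to single snRNPs were less uniform. In the U1 particle, which pairs with the 5′ splice site, SNRPA and SNRPC were called lower, and SNRNP70, which bears the name U1-70K, was not called. SNRPA was at 108, 115 and 109 CPM in the vehicle and at 91.2, 89.7 and 91.6 CPM in the LLY-283 libraries, a log2 fold change of -0.26 ± 0.04 (SE, edgeR adjusted p = 7.78e-06). SNRPC was at 95.8, 94.3 and 96.3 CPM and at 79.7, 80.9 and 83.2 CPM, a log2 fold change of -0.21 ± 0.04 (SE, edgeR adjusted p = 0.000247). For both, the treated libraries lay within 4 CPM of each other and below every vehicle library. SNRNP70 was at 273, 274 and 259 CPM in the vehicle and at 267, 290 and 297 CPM in the LLY-283 libraries, with a log2 fold change of 0.11 ± 0.04 (SE, edgeR adjusted p = 0.0508). SNRPA shares sequence with ACTMAP on the other strand.

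In the U2 particle, which binds the branch point, SNRPA1 was called lower and its partner SNRPB2 was not called. SNRPA1 was at 98.0, 104 and 99.7 CPM in the vehicle and at 85.1, 85.2 and 85.0 CPM in the LLY-283 libraries, a log2 fold change of -0.22 ± 0.04 (SE, edgeR adjusted p = 0.000116). The treated libraries were nearly equal and all lower. The log2 fold change of SNRPB2 was -0.08 ± 0.04 (SE, edgeR adjusted p = 0.0829). An exon of PCSK6 overlaps SNRPA1 on the same strand.

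The 2 U5 members moved in opposite directions. SNRNP40, a WD-repeat protein of U5, was at 91.3, 84.4 and 88.9 CPM in the vehicle and at 80.5, 73.9 and 72.8 CPM in the LLY-283 libraries, a log2 fold change of -0.20 ± 0.04 (SE, edgeR adjusted p = 0.000977). SNRNP200, the Brr2 helicase that unwinds U4 from U6, was at 419, 410.0 and 397 CPM and at 442, 442 and 426 CPM, a log2 fold change of 0.12 ± 0.03 (SE, edgeR adjusted p = 0.00664). SNRNP200 was the 1 member called higher, although its treated libraries lay only just above the highest vehicle library. The call was lost in each of 6 fits that left out 1 library and in 4 of 9 other alternatives, with an adjusted p of 0.111 in 1 edgeR fit over the 22 libraries of days 0 to 7.

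SNRNP48 and SNRNP25, 2 of the 3 genes of the U11/U12 particle, which recognises the rare minor-class introns, were among the members with the lowest fold changes. SNRNP48 was at 39.1, 41.1 and 42.1 CPM in the vehicle and at 33.6, 29.8 and 32.2 CPM in the LLY-283 libraries, a log2 fold change of -0.33 ± 0.06 (SE, edgeR adjusted p = 5.19e-05). SNRNP25 was at 48.1, 41.2 and 45.4 CPM and at 37.4, 34.8 and 33.2 CPM, a log2 fold change of -0.33 ± 0.06 (SE, edgeR adjusted p = 6.82e-05). Both genes' treated libraries lay below all vehicle libraries. SNRNP35, measured at 12.04 to 16.3 CPM in these libraries, had a log2 fold change of 0.17 ± 0.09 (SE) and was not called (edgeR adjusted p = 0.152).

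Among the LSm rings, 5 of 8 genes were called lower, against 14.1% of all genes tested, and the median of the 8 was -0.21. LSM7 had the smallest p of all 40 members. It belongs to both the nuclear U6 ring and the cytoplasmic decay ring, and was at 146, 147 and 155 CPM in the vehicle and at 118.5, 110 and 107 CPM in the LLY-283 libraries. The groups were wide apart, with every treated library far below every vehicle library. The log2 fold change of LSM7 was -0.39 ± 0.04 (SE), a level 23.8% below that of the vehicle. The adjusted p was 1.03e-08 in edgeR's quasi-likelihood test.

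LSM6 and LSM3, which are also shared by both rings, were called lower as well. LSM6 was at 40.8, 41.1 and 37.5 CPM in the vehicle and at 33.2, 30.6 and 32.3 CPM in the LLY-283 libraries, a log2 fold change of -0.29 ± 0.06 (SE, edgeR adjusted p = 0.000218). LSM3 was at 67.6, 63.5 and 64.8 CPM and at 57.3, 52.2 and 51.9 CPM, a log2 fold change of -0.26 ± 0.05 (SE, edgeR adjusted p = 0.000125). Neither gene's groups overlapped. LSM4, shared too, and LSM8, which marks the U6 ring, were called lower with log2 fold changes of -0.21 and -0.22 (edgeR adjusted p = 0.000253 and 0.000941). LSM1, which takes the place of LSM8 in the decay ring, was at 45.7, 46.98 and 52.5 CPM and at 43.9, 44.9 and 40.99 CPM. The treated libraries of LSM1 were all lower, but only by a small gap, and the log2 fold change of -0.13 ± 0.06 (SE) was not called (edgeR adjusted p = 0.0657). Neither LSM2 nor LSM5 passed the threshold, with log2 fold changes of -0.16 and -0.14. The difference between the response of LSM8 and that of LSM1 was not tested.

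The U7 particle cuts histone messenger RNAs at their 3′ ends, with LSM10 and LSM11 in place of SmD1 and SmD2. Neither was called. LSM11 was at 27.95, 27.4 and 29.8 CPM in the vehicle and at 25.8, 24.7 and 24.7 CPM in the LLY-283 libraries, a log2 fold change of -0.15 ± 0.06 (SE, edgeR adjusted p = 0.0614). Its groups did not overlap, but those of LSM10 did, with a log2 fold change of -0.12 ± 0.06 (SE). Of the LSm-domain proteins outside the rings, LSM12 was at 56.8, 58.3 and 55.2 CPM and at 48.8, 49.9 and 49.1 CPM. LSM12 was called lower with a log2 fold change of -0.18 ± 0.05 (SE, edgeR adjusted p = 0.00424), and the adjusted p was 0.0177 in DESeq2. Its named pseudogene held 7.43% as many counts. The translational repressors LSM14A and LSM14B were not called, with log2 fold changes of -0.12 and -0.05.

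In the SMN complex 5 of 9 members were called lower, against 14.1% of all genes tested. GEMIN4 had the lowest log2 fold change of the 40 members: it was at 57.9, 55.5 and 49.6 CPM in the vehicle and at 41, 40.8 and 35.4 CPM in the LLY-283 libraries. Repeat 3 was the lowest library in both groups, and the groups did not overlap. The log2 fold change was -0.46 ± 0.06 (SE), a level 27.1% below that of the vehicle. The adjusted p was 2.9e-06 in edgeR's quasi-likelihood test. GEMIN4 overlaps an exon of DBIL5P on the other strand.

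GEMIN5, the subunit that binds the snRNA, was at 104, 99.5 and 100.1 CPM in the vehicle and at 81.9, 77.2 and 74.1 CPM in the LLY-283 libraries. Every treated library was well below the vehicle libraries. Its log2 fold change was -0.36 ± 0.04 (SE, edgeR adjusted p = 1.33e-07). GEMIN6, DDX20 (the helicase Gemin3) and STRAP were called lower with log2 fold changes of -0.27, -0.16 and -0.15 (edgeR adjusted p = 0.00309, 0.00326 and 0.00189). Each of these 3 calls was lost when at least 1 library was left out. In DESeq2 the adjusted p was 0.0188 for GEMIN6, 0.0119 for DDX20 and 0.00119 for STRAP. GEMIN2 and GEMIN7 were not called, with log2 fold changes of -0.23 ± 0.09 and -0.13 ± 0.07 (SE). GEMIN8 was the least abundant member in counts, at 7.21, 4.66 and 5.69 CPM in the vehicle and at 7.12, 7.73 and 7.55 CPM in the LLY-283 libraries. Its groups overlapped, the log2 fold change of 0.37 ± 0.14 (SE) had an edgeR adjusted p of 0.0407, and its pseudogenes held 13.8% as many counts.

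SMN1 itself, on the plus strand of chr5:70925030-70953942, was at 70.1, 60.1 and 69.3 CPM in the vehicle and at 62.9, 68.8 and 59.1 CPM in the LLY-283 libraries. These groups overlapped throughout, with a log2 fold change of -0.04 ± 0.07 (SE, edgeR adjusted p = 0.681), whose sign turned when LLY-283 repeat 3 was left out. SMN1 has a near-identical copy, SMN2, and reads that fit both are divided between them by estimation. SMN2 was at 46.9, 56.8 and 49.3 CPM and at 39.7, 30.5 and 39.2 CPM, in each treated library below all vehicle libraries. When the counts of both copies were added, the sum was at 117, 117 and 119 CPM in the vehicle and at 103, 99.3 and 98.3 CPM in the LLY-283 libraries. The spread within each group was much smaller for the sum than for either copy. The sum was called lower, with a log2 fold change of -0.21 ± 0.04 (SE, edgeR adjusted p = 7.99e-05), while neither copy alone was called.

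Promoter sequence was examined because many members moved together. RefSeq windows on GRCh38.p14 of 250 bases before and 50 after the start were found for 34 of the 40 members, and SNRNP35, SNRPD1, LSM14A, LSM1, LSM6 and SMN1 had none. The motifs searched, on both strands, were CCGGAAG, the core bound by ETS factors, CACGTG, the E-box bound by MYC and related factors, and the palindromic motif bound by NRF1. The 34 members had 46 windows, with 2 or more for 7 of them. A gene was counted when any of its windows held the motif, and windows per gene were not matched between sets. CCGGAAG or its reverse complement CTTCCGG was in 12 of 34 members (35.3%), against 21.6% of the genes tested at day 5 that had a window and 12.2% of all genes with one. It was found in 8 of 22 members called lower (36.4%) and in 4 of 12 others (33.3%), similar shares. The E-box was in 3 of 34 members (8.82%), against 12.3% of genes tested. The NRF1 motif was in LSM7 and GEMIN2 alone (5.88%), against 2.59% of genes tested. A match is a description of the letters and not of binding.

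Matches of the ETS core in 6 members that lie before the annotated gene are printed with 22 bases on each side, on the strand of the gene, from 5′ to 3′ and with the motif in capitals, so that those of members called lower can be read beside those of members not called. SNRPC, LSM8 and SNRPA1 were called lower at day 5, and LSM5, SNRPB2 and GEMIN8 were not. In SNRPC the motif and its reverse complement overlap. For GEMIN8 another match before the annotated gene is not printed.
SNRPC, chr6:34757269-34757322, plus strand: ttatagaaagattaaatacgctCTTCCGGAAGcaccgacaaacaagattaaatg
LSM8, chr7:118183953-118184003, plus strand: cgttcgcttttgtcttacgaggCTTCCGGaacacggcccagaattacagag
SNRPA1, chr15:101295333-101295383, minus strand: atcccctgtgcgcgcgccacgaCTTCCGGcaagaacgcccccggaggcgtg
LSM5, chr7:32495482-32495532, minus strand: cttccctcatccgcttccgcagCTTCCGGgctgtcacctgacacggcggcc
SNRPB2, chr20:16729909-16729959, plus strand: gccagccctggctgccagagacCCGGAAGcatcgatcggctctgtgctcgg
GEMIN8, chrX:14029978-14030028, minus strand: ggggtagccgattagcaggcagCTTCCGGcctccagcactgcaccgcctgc

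The comparison at day 0 shows how far the members differed without time under treatment. None of the 40 was called in edgeR's quasi-likelihood test or in DESeq2, 1 member (LSM7) had an unadjusted p under 0.05, and 0.0169% of 17780 genes were called. The median log2 fold change was 0.01. LSM7 was at 114, 118 and 123 CPM in the vehicle and at 125, 128 and 127 CPM in the LLY-283 libraries of day 0, on the opposite side from day 5. Its log2 fold change there was 0.09 ± 0.03 (SE, edgeR adjusted p = 0.853).

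The treatment difference at day 5 was then tested against that at day 0, as the interaction of treatment with day in 1 edgeR fit over the 12 libraries of both days. Of the 40 members, 14 had a lower difference at day 5 and 0 a higher one, against 8.15% and 6.78% of 18369 genes. The 14 were SNRPB, SNRPD1, SNRPD2, SNRPD3, SNRPE, SNRPF and SNRPG of the Sm ring, SNRPA of U1, SNRPA1 of U2, SNRNP40 of U5, LSM6 and LSM7 of the LSm rings, and GEMIN4 and GEMIN5 of the SMN complex. LSM7 had the lowest interaction, -0.48 ± 0.05 (SE, edgeR adjusted p = 3.03e-07), followed by GEMIN4 at -0.46 ± 0.08 (SE, edgeR adjusted p = 0.00011). The sum of SMN1 and SMN2 had an interaction of -0.20 ± 0.06 (SE, edgeR adjusted p = 0.00797). In the fit over 22 libraries only 1 of the 40 members was called. That fit also takes in the day 7 libraries, and the share of all genes called in it was not counted.

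In the vehicle libraries many genes changed between day 0 and day 5, members among them. Of the 40 members, 14 were higher at day 5 and 4 were lower, against 22.2% and 16.7% of 17106 genes, with a median of 0.09 over the members and -0.02 over all genes. Scaling by library totals alone gave 10 members higher and 5 lower, with a median of 0.036. This comparison and the one at day 5 share the 3 vehicle libraries of day 5. SNRPA was at 68.1, 76.8 and 73.6 CPM in the vehicle at day 0 and at 108, 115 and 109 CPM at day 5, a log2 fold change of 0.59 ± 0.04 (SE, edgeR adjusted p = 8.91e-12). SNRNP48 was at 27.5, 26.7 and 27.6 CPM and at 39.1, 41.1 and 42.1 CPM, a log2 fold change of 0.56 ± 0.06 (SE, edgeR adjusted p = 3.79e-09). For both genes all LLY-283 libraries of day 5 lay between these vehicle groups.

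Of the Sm ring, 7 of 8 genes were called higher with time in the vehicle, against 22.2% of all genes tested. The exception was SNRPE with a log2 fold change of -0.01. SNRPN rose by 0.38 and SNRPG by 0.38 on the log2 scale, and SNRPB by 0.17. SNRNP70, SNRPB2, DDX20 and GEMIN8 were the 4 members that fell, by 0.19, 0.18, 0.17 and 0.51 on the log2 scale. The corresponding LLY-283 against vehicle values at day 5 for these 4 were 0.11, -0.08, -0.16 and 0.37. GEMIN4 and GEMIN5 were not called with time, with log2 fold changes of 0.07 and 0.06.

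**Figure D3:**
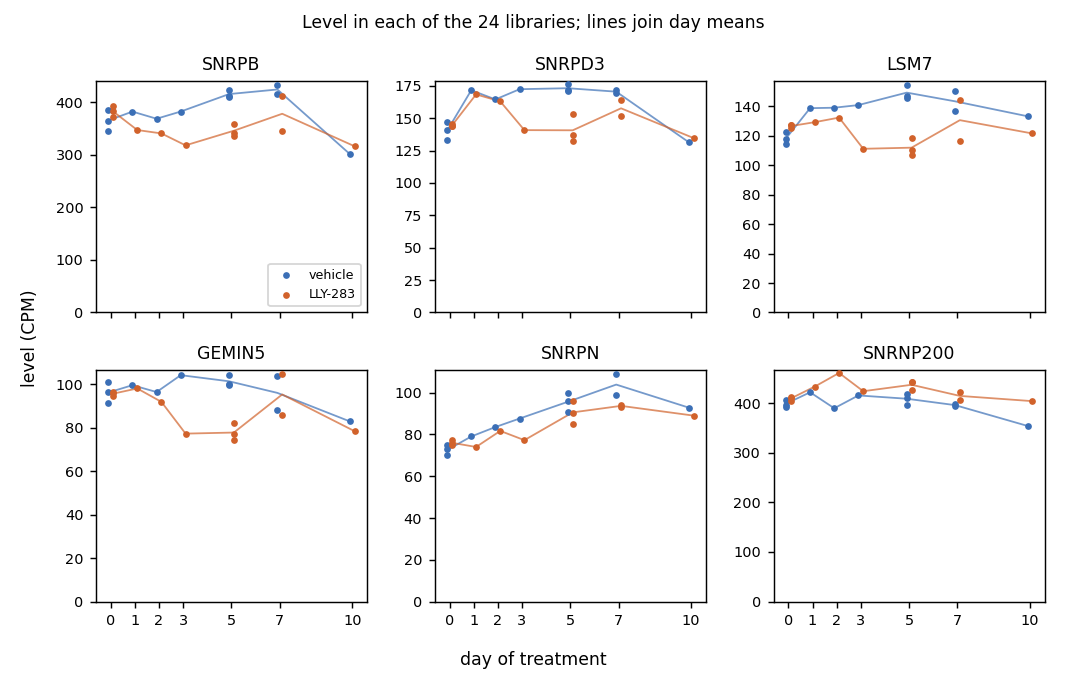
Level in CPM (y axis, from 0) of 6 members by day of treatment (x axis) in each vehicle (blue) and LLY-283 (orange) library, with lines through the mean of each day. SNRPB, SNRPD3, LSM7 and GEMIN5 separate at days 3 and 5, SNRPN climbs from about 74 to over 85 CPM in both groups, and SNRNP200 lies slightly higher after LLY-283.

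Days 1, 2, 3 and 10 had 1 library per group, so their differences have no replicate check and were not tested. At day 1, 26 of 40 members were lower in the LLY-283 library, with a median difference in log2 CPM of -0.03, and at day 2, 33 of 40 were lower, with a median of -0.07. In the LLY-283 library of day 2 COL1A1, COL1A2, COL3A1 and FN1 summed to 81.3 CPM, and day 2 cannot be given without it. At day 3, 37 of 40 members were lower, with a median of -0.26. On the same scale day 5 gave 36 of 40 and -0.23. The share of all genes that were lower was 52.0% to 53.2% on days 1 to 3 and 49.8% at day 5. The day 3 values were thus close to those of day 5 and those of days 1 and 2 nearer to 0.

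LSM7 was at 141 CPM in the vehicle and 111 CPM in the LLY-283 library of day 3, and at 139 and 132 CPM at day 2. GEMIN5 was at 104 and 77.2 CPM at day 3 and at 96.3 and 91.8 CPM at day 2. Both differed by more at day 3 than at day 2. GEMIN4 was at 52.0 and 44.3 CPM at day 1, a difference of -0.23 in log2 CPM. That was the lowest of the 40 members on that day, and the highest was 0.23, for SMN1. By role, the median difference at day 3 lay between -0.06 for the U7 proteins and -0.30 for the U2 proteins. The 3 members not lower at day 3 were SNRNP70 (0.07), SNRNP200 (0.03) and GEMIN8 (0.51).

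**Figure D4:**
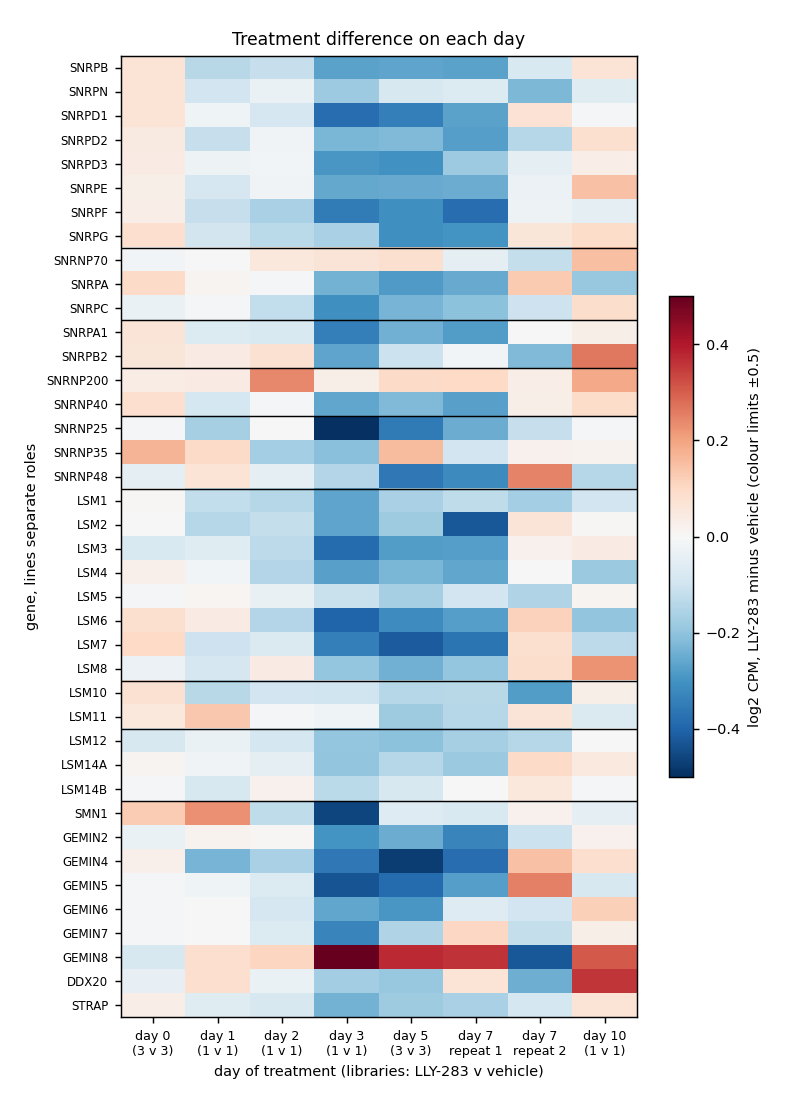
Difference in log2 CPM, LLY-283 minus vehicle, of each member (rows, with lines between roles) on each day (columns; the day 7 repeats apart), with blue lower and red higher after LLY-283 and colours limited to ±0.5. Days 3 and 5 and repeat 1 of day 7 are mostly blue, while day 0, repeat 2 of day 7 and day 10 are mixed.

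At day 7, with 2 libraries per group taken as labelled, no member was called in edgeR's quasi-likelihood test or in DESeq2, 0 had an unadjusted p under 0.05, and 0.0% of 16826 genes were called (236 of them, 1.4%, had an unadjusted p under 0.05). The groups did not overlap for 14 of 40 members, against 25.7% of all genes. The members' median log2 fold change was -0.11. It was -0.19 without the library labelled LLY-283 repeat 2 and -0.02 without that labelled LLY-283 repeat 1. The median was -0.10 without the library labelled vehicle repeat 1, in which COL1A1, COL1A2, COL3A1 and FN1 summed to 81.6 CPM. Without that labelled vehicle repeat 2 the median was -0.115. The repeats, which share only a number, gave different pictures: 35 of 40 members were lower in repeat 1, with a median difference in log2 CPM of -0.20, and 20 of 40 in repeat 2, with a median of -0.01.

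SNRPB was at 415 and 434 CPM in the libraries labelled vehicle at day 7, at 345 CPM in that labelled LLY-283 repeat 1 and at 411 CPM in that labelled LLY-283 repeat 2. LSM7 was at 150 and 137 CPM in those labelled vehicle and at 117 and 145 CPM in those labelled LLY-283, and GEMIN5 at 104 and 88.1 CPM and at 85.7 and 104.8 CPM. The library labelled LLY-283 repeat 1 was the lowest for each of these genes, and repeat 2 lay close to or within the vehicle range. Of the 24 members called lower at day 5, 20 were nearer to the LLY-283 than to the vehicle mean of day 5 in the library labelled LLY-283 repeat 1, 0 in that labelled LLY-283 repeat 2, 0 in that labelled vehicle repeat 1 and 2 in that labelled vehicle repeat 2. The cause of the difference between the repeats was not tested.

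At day 10, 14 of 40 members were lower in the LLY-283 library and the median difference was 0.03, with 50.4% of all genes lower. Both libraries were low for the members: relative to the mean of the 6 day 0 libraries, the median log2 CPM of the members was -0.09 in the vehicle and -0.09 in the LLY-283 library. On this scale the vehicle libraries of days 1 to 7 lay between 0.10 and 0.15. In the LLY-283 group day 1 was at 0.08, day 2 at 0.03, day 3 at -0.16, the 3 libraries of day 5 at -0.05, -0.09 and -0.12, and those of day 7 at -0.04 and 0.12. From day 1 to day 7, each LLY-283 library except that labelled repeat 2 of day 7 lay below all vehicle libraries of those days. Days 1 to 3 had 1 library per group, and at day 1 the gap was small, with 0.08 against a lowest vehicle value of 0.10. The vehicle libraries of day 0 alone ranged from -0.09 to 0.04.

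**Figure D5:**
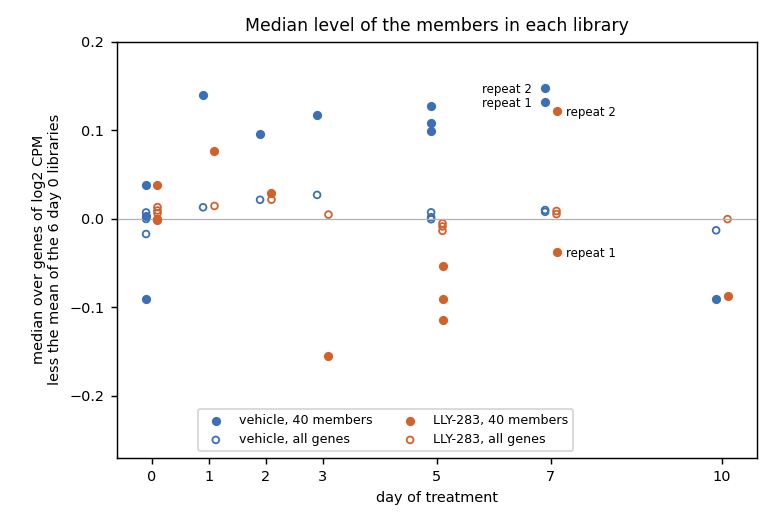
Median over the 40 members (filled) and over all genes (open) of log2 CPM less the mean of the 6 day 0 libraries (y axis), for each vehicle (blue) and LLY-283 (orange) library by day (x axis). The members' medians separate by treatment at days 3 and 5, the library labelled LLY-283 repeat 2 of day 7 lies beside the vehicle libraries, and both libraries of day 10 lie near -0.09.

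Other genes of the same pathway were counted from fixed lists of 60 genes, all of which were tested. At day 5, 18 of the 60 were called lower and 2 higher, against 14.1% and 12% of all genes tested, with a median log2 fold change of -0.06. The lists are short, and 2 of 9 or 2 of 10 genes called lower is near the share of all genes. The methylosome list, made of PRMT5 and proteins that bind it, had 3 of 5 genes called lower. WDR77, the partner of PRMT5, had a mean of 130 ± 4.78 CPM (SD, n = 3) in the vehicle and 92.5 ± 1.66 CPM in the LLY-283 libraries, a log2 fold change of -0.46 ± 0.04 (SE, edgeR adjusted p = 4.78e-10), as low as that of any member. RIOK1, an adaptor of PRMT5, was at -0.27 (edgeR adjusted p = 2.09e-05). PRMT5 itself was at 90.5 ± 2.83 and 82.2 ± 1.60 CPM (SD, n = 3), and its log2 fold change of -0.11 ± 0.04 (SE) was not called (edgeR adjusted p = 0.0307).

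A list of 10 genes named for snRNA export, capping and nuclear import also holds COIL, USPL1 and ICE1. Of these 10, 5 were called lower, against 14.1% of all genes tested. Among them were the importin KPNB1 with a log2 fold change of -0.38 and the exportin XPO1 with -0.21 (edgeR adjusted p = 2.99e-09 and 2.07e-05). Of 5 genes for histone messenger RNA 3′ ends, 3 were called lower, with SLBP, the stem-loop binding protein, at -0.33 and CSTF2 at -0.31 (edgeR adjusted p = 3.26e-06 and 0.000126). Of 9 decapping genes, 2 were called lower, the decapping enzyme DCP2 at -0.26 and its activator DCP1A at -0.19 (edgeR adjusted p = 3.55e-06 and 0.00328).

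The remaining spliceosome lists moved less in 1 direction. Of 10 SF3 proteins of U2, 2 were called lower, SF3A3 at -0.16 and PHF5A at -0.20 (edgeR adjusted p = 0.00137 and 0.00818). Of 15 proteins of U4/U6.U5, 3 were called lower and 2 higher. The 2 with the smallest p were those called higher, PRPF3 by 0.39 and DDX23 by 0.30 on the log2 scale (edgeR adjusted p = 6.43e-09 and 7.01e-07). None of 5 other minor spliceosome proteins was called in edgeR's test, and the log2 fold change of RNPC3, the 1 with the smallest p, was 0.21 (edgeR adjusted p = 0.0656). SMN2 alone was not called either, with a log2 fold change of -0.46 ± 0.13 (SE, edgeR adjusted p = 0.0345). In the interaction of treatment with day, 12 of the 60 were lower and 2 higher, against 8.15% and 6.78% of all genes, and none was called at day 0.

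Of the 25 members called at day 5, 15 were called under all 9 other alternatives and with each of 6 libraries left out: LSM3, LSM6, LSM7, SNRPA, SNRPA1, SNRNP25, SNRNP48, SNRPB, SNRPD1, SNRPD3, SNRPE, SNRPF, SNRPG, GEMIN4 and GEMIN5. Without vehicle repeat 3, in which COL1A1, COL1A2, COL3A1 and FN1 summed to 157 CPM, 25 members were lower and 0 higher. With all 6 libraries thinned to the smallest total, 26 were lower and 0 higher, with a median of -0.20. Shares of all genes called in these fits were not counted.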

How the data were processed

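RNA was measured in 24 libraries of HSJD-DIPG-007 cells, grouped by treatment and day from their titles. The authors assigned poly(A) RNA-seq reads to hg38 transcripts with kallisto and deposited estimated counts per gene, as unscaled whole numbers. No column was left unmapped. Symbols and positions came from GENCODE 44 on GRCh38, and promoter windows from RefSeq. Protein sequences were not used here, so the planned count of RG dipeptides was not made.

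Members were tested with all other genes in edgeR 4.0.16 (R 4.3.3): filterByExpr by group, TMM, robust quasi-likelihood tests, Benjamini-Hochberg adjustment and calls at an adjusted p under 0.01. Standard errors are the log2 fold change divided by the square root of F. CPM used TMM factors over all 24 libraries, and marker CPM the library totals alone; levels were not compared between genes. Fits used the libraries of their own comparison, so day 5 differences of log2 CPM are slightly lower than fitted ones. DESeq2 1.42.0, other scalings and filters, a 22-library fit, a replicate block, summed identifiers, thinning and leaving out libraries were alternatives. Scripts were tested on simulated data. The members, lists and tests were chosen with earlier results of these data known. Values in every library were given for the 16 called members of smallest p at day 5, the member of smallest p in each role and those called in the interaction; others given in full, such as SNRNP200, SNRPN, SNRPC, SNRNP70, LSM1, SMN1 and GEMIN8, were chosen after their values were seen. At most 2 genes per pathway list were named, by smallest p, with PRMT5 added as the target of LLY-283.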

Additional observations from a re-analysis of the deposited data

Results flagged for a closer look

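For 14 members the treatment difference at day 5 was not that at day 0, by edgeR's test of the interaction over 12 libraries. Of the 40 members these 14 had a lower difference and 0 a higher one, against 8.15% and 6.78% of 18369 genes. In the fit over 22 libraries only 1 of the 40 was called. In log2 units the difference at day 5 less that at day 0 was -0.475 for LSM7, -0.464 for GEMIN4, -0.367 for SNRPD1, -0.357 for LSM6, -0.35 for SNRPG and -0.338 for SNRPA. It was -0.335 for GEMIN5, -0.302 for SNRPD3, -0.294 for SNRPF, -0.291 for SNRPB, -0.269 for SNRNP40, -0.266 for SNRPA1, -0.239 for SNRPE and -0.224 for SNRPD2.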

How the results depend on the processing

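At day 5 the members' lower direction held in every alternative: 17 to 27 were lower and 0 to 2 higher, and the median lay between -0.23 and -0.17. DESeq2 gave 21 lower and 1 higher, library totals alone 22 and 1, and the 22-library fit 17 and 0. The share of all genes called was not counted in the alternative fits. In the 22-library fit, 11 members instead of 18 were called for time in the vehicle and 1 instead of 14 in the interaction; the cause was not tested. With 1 library left out, called members numbered 20 to 28 at day 5 (medians -0.218 to -0.191), 16 to 17 for vehicle time (0.0688 to 0.124), 10 to 17 in the interaction (-0.222 to -0.159) and 0 at days 0 and 7 (medians -0.0163 to 0.04 and -0.193 to -0.0248). A day 7 fit with 1 library in a group assumes that it varies like the other group. With 1 library left out, SMN1 at day 5 ranged from -0.118 to 0.0058, the latter without LLY-283 repeat 3. Replicate numbers did not pair the libraries (correlations of deviations -0.165 to 0.056), and with the replicate block 25, 0, 0, 19 and 13 members were called at days 5, 0 and 7, over time and in the interaction. Crossing the day 7 numbers, an alternative added like the thinning after the data were seen, gave 0. Of single members' values, 34 lost and 15 gained a call. Library totals limit GEMIN8 most, and the replicates are technical.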
